A study of Homo sapiens with 18 samples.

Results

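The genes described here encode nucleoporins, the proteins of the nuclear pore, and the importins and exportins that carry cargo through it. They were taken by name: NUP followed by a digit, or IPO, KPNA, KPNB, TNPO or XPO followed by a digit, in the array platform's gene symbols. The symbols matched 46 genes measured by 63 probes, and each gene was read from its brightest probe. A gene was kept when its highest group mean was above 92.1, the probe median over all arrays. That left 44 genes, of 15291 kept on the whole array. KPNA7, whose highest group mean was 88.6, and NUP210L, at 86.7, were left out. Just inside the limit were NUP62CL at 107, NUP58 at 115, KPNA5 at 119 and NUP98 at 133. The intensity values therefore decided which genes were kept. The set itself was chosen with earlier results of these data known, so its shares beside those of all genes are a description. NUP62CL was above the median in MOLM13 shNT alone, 1 of the 6 groups, so it had to be lower in the others. Its levels are given as a description. The main counts of calls that include it are also given over the other 43 genes, and further counts that include it are marked.

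The nuclear pore is a ring-shaped channel in the nuclear envelope. An outer ring (the Y complex) and an inner ring form its scaffold, phenylalanine-glycine repeat proteins fill the channel, and filaments and a basket extend to the cytoplasmic and nuclear sides. Importin beta family receptors bind cargo directly or through importin alpha adaptors, and the GTPase Ran sets the direction of transport. In acute myeloid leukaemia some pore genes, NUP98 and NUP214 among them, are known as partners in gene fusions.

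The study lowered BCAT1, the cytosolic branched-chain amino acid aminotransferase, in cultured human acute myeloid leukaemia cells of the lines MOLM13, SKM1 and HL-60. Every line carried a lentiviral short hairpin against BCAT1 (shBCAT1, the hairpin numbered 3) or a non-targeting hairpin (shNT), and transduced cells were sorted 48 h after transduction. HL-60 was grown in RPMI with 10% fetal calf serum and the other lines with 20%, so line and serum cannot be told apart in comparisons with HL-60. There were 6 groups of 3 Illumina arrays, 18 in all, each from 200 ng of total RNA. The labels do not say whether the 3 arrays of a group came from separate cultures, so the p-values measure the spread between arrays, which may be technical. Only 1 hairpin was used, so effects of losing BCAT1 and effects of that hairpin cannot be told apart.

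BCAT1 itself fell in each line. Its normalized intensity was 1473, 1476 and 1456 in the shNT arrays of HL-60 and 137, 164 and 135 in its shBCAT1 arrays. It was 1207, 1239 and 1217 in the shNT arrays of SKM1 and 121, 133 and 127 in its shBCAT1 arrays. It was 1046, 1022 and 1144 in the shNT arrays of MOLM13 and 150.4, 147 and 173 in its shBCAT1 arrays. The groups did not overlap in any line, and BCAT1 fell 10.2-fold, 9.62-fold and 6.84-fold in the order HL-60, SKM1, MOLM13 (limma adjusted p = 2.58e-18, 4.40e-18 and 1.71e-16). Array medians lay between 91.0 and 93.1, and the correlation between arrays of a group between 0.989 and 0.997. Of 12 myeloid markers on the array, 11 or 12 were above the probe median in every group. Their summed level in SKM1 was 53681 to 55096 in shNT and 31002 to 32512 in shBCAT1 arrays, whereas in HL-60 it was 31381 to 32037 and 36119 to 37115 and in MOLM13 73055 to 77868 and 80828 to 83225. The summed level of 11 lymphoid markers in MOLM13 was 4171 to 4537 in shNT and 4606 to 5578 in shBCAT1 arrays, most of it NKG7 (3054 and 3816). In HL-60 it was 1865 to 1927 and 2256 to 2559, and in SKM1 1493 to 1556 and 1567 to 1630. No erythroid or megakaryocytic marker had a group mean above 168, and of the epithelial markers only EPCAM stood out, at 1473 in shNT and 1208 in shBCAT1 of SKM1. The part of these marker levels in the results that follow was not tested.

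Across the 44 pore and carrier genes, lower intensity with shBCAT1 was more frequent than higher intensity, and the number called differed between the lines. In HL-60, 7 fell and 2 rose, which was 15.9% and 4.55% of the members against 8.87% and 10% of all genes tested. In SKM1, 4 fell and 1 rose (9.09% and 2.27%, against 6.49% and 4.67% of all genes). The share that fell in SKM1 was thus near that of all genes, and 25 differences were negative and 19 positive. In MOLM13, 18 fell and 1 rose (40.9% and 2.27%, against 10.7% and 10.3% of all genes), and without NUP62CL 17 of 43 fell (39.5%). The median log2 difference of the members was -0.06, -0.04 and -0.17 in HL-60, SKM1 and MOLM13, while that of all genes was 0.00 in size in each line. A call here is an adjusted p under 0.05 in a limma fit of all genes and arrays. All genes tested include those just above the probe median, and the shares were not matched for brightness. The part of brightness in these shares was not tested. In these bulk samples, fewer cells of a type and less RNA per cell cannot be told apart. By position of the arrays alone, the shBCAT1 arrays of 17 members lay wholly below shNT in MOLM13 and of 2 wholly above (38.6% and 4.55%, against 15.5% of all genes either way). NUP62CL was among the 17. In HL-60 these were 12 below and 5 above (27.3% and 11.4%, against 13.9% and 14.5%). In SKM1 they were 9 below and 5 above (20.5% and 11.4%, against 17.4% and 15.9%), so that the share below was near that of all genes. Over the 3 lines, 22 members were called lower somewhere, 4 higher somewhere and 18 in no line (50%, 9.09% and 40.9%, against 19%, 18.3% and 64.5% of all genes). The 22 include NUP62CL.

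**Figure D1:**
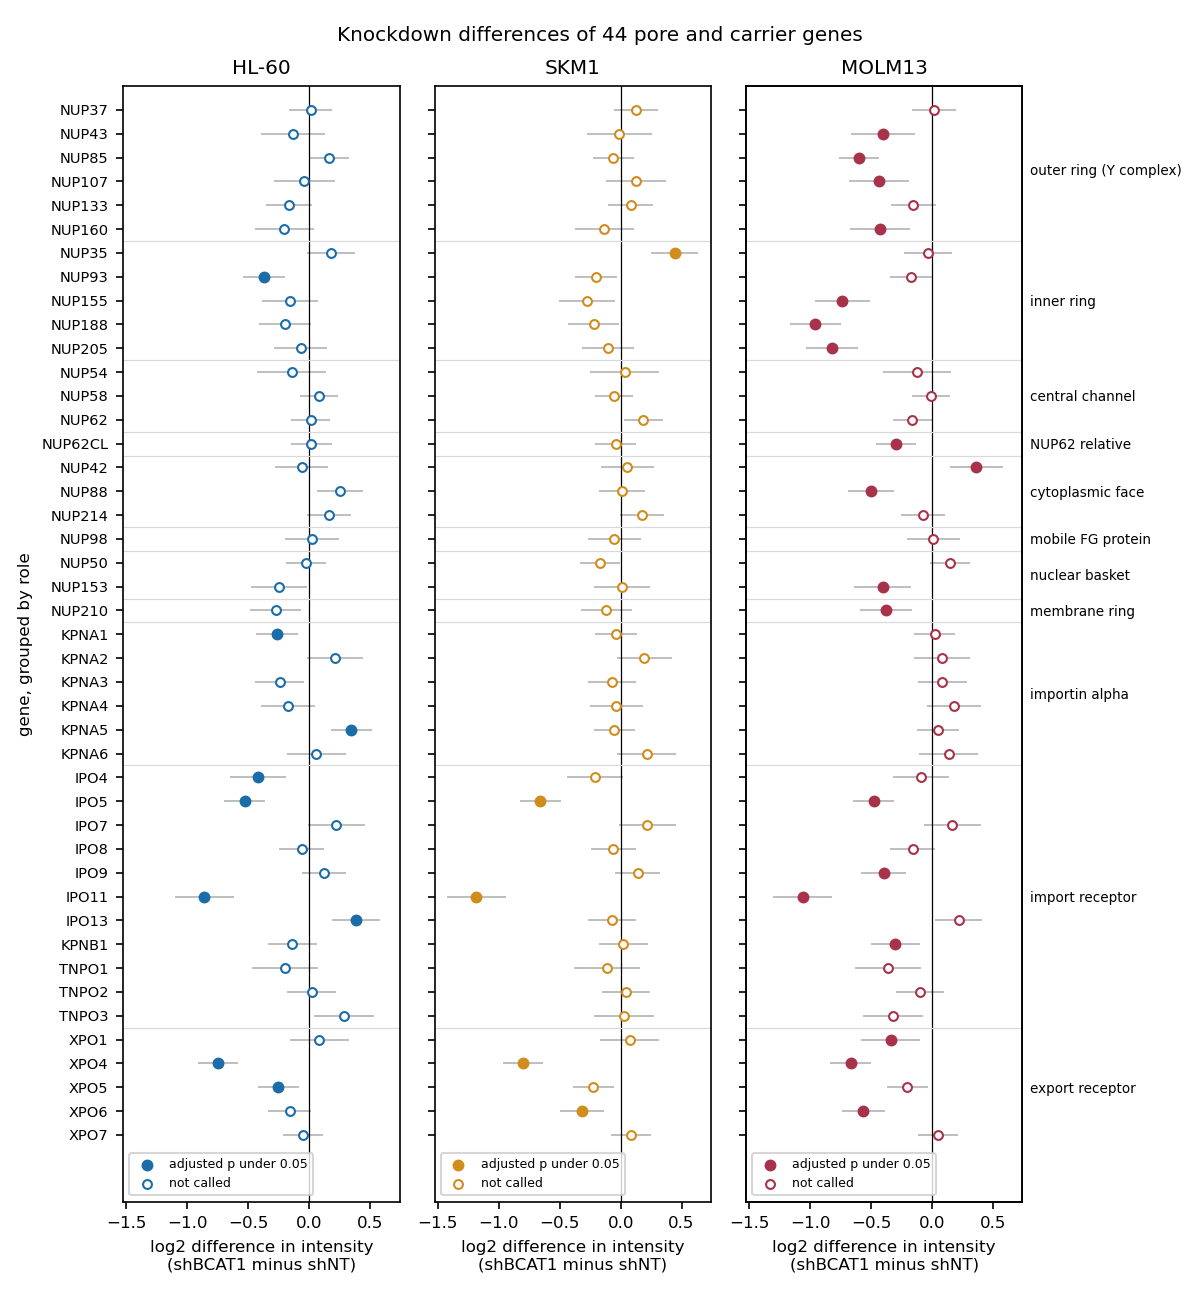
Log2 difference shBCAT1 minus shNT (x axis) for each of the 44 genes (y axis, grouped by role), in HL-60, SKM1 and MOLM13. Points are fitted differences from 3 arrays per group, lines are 95% confidence intervals, and filled points passed the adjusted p of 0.05. IPO11, XPO4 and IPO5 lie to the left of 0 in each panel, and the filled points of outer and inner ring genes are mostly in the MOLM13 panel.

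The genes called lower in all 3 lines were the carriers IPO11, XPO4 and IPO5, 3 of 44 members, where 1.6% of all genes were called lower in every line. IPO11 imports ubiquitin-conjugating enzymes and other cargo, XPO4 exports factors such as eIF5A, and IPO5 (importin 5) imports ribosomal proteins and histones. Their promoter sequences are shown because these genes carry the finding shared by the lines. Each run is the 250 bases before the RefSeq start, on the gene's strand and in build GRCh38.p14: IPO11 at chr5:62412513-62412762 (+), XPO4 at chr13:20902775-20903024 (-) and IPO5 at chr13:97953425-97953674 (+). Capitals mark matches to the motif named NRF1 (GCGCA, any base, GCGC) in IPO11, to GGGCGG (GC box) and to CCAAT on either strand in XPO4, and to CCAAT on either strand in IPO5.
IPO11: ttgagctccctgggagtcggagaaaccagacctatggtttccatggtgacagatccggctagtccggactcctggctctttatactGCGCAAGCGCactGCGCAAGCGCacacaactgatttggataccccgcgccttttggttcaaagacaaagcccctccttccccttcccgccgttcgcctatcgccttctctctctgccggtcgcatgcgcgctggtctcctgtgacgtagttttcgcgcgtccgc
XPO4: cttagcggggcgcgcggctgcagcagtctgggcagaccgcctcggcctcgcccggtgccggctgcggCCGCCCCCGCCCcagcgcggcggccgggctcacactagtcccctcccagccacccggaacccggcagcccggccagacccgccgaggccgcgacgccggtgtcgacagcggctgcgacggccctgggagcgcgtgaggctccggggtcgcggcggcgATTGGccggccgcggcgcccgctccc
IPO5: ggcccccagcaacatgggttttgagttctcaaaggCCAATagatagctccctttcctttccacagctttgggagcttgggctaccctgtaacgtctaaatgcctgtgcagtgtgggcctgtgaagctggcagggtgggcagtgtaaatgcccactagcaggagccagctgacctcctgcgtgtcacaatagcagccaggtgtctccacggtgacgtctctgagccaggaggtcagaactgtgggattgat
No motif among the 6 searched was found in the printed bases of all 3 genes, and a match is a description of letters, not of a bound site.

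IPO11 read 734, 957 and 724 in the shNT arrays of HL-60 and 391, 507 and 429 in its shBCAT1 arrays. It read 731, 831 and 800.4 in the shNT arrays of SKM1 and 360.3, 341 and 338 in its shBCAT1 arrays. It read 410.0, 509.8 and 561 in the shNT arrays of MOLM13 and 232, 222 and 249.7 in its shBCAT1 arrays. No shBCAT1 array reached the level of any shNT array of its line. It fell 1.82-fold, 2.27-fold and 2.09-fold in the order HL-60, SKM1, MOLM13 (log2 -0.86, -1.18 and -1.06, SE 0.12, adjusted p = 6.34e-06, 8.63e-08 and 3.58e-07).

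XPO4 read 904, 1005 and 965 in the shNT arrays of HL-60 and 543, 578 and 591 in its shBCAT1 arrays. It read 1030.1, 1026 and 1045 in the shNT arrays of SKM1 and 612, 559 and 607 in its shBCAT1 arrays. It read 863, 791 and 788 in the shNT arrays of MOLM13 and 539.8, 539.7 and 459 in its shBCAT1 arrays. The groups again lay apart in every line. XPO4 fell 1.68-fold, 1.75-fold and 1.59-fold in HL-60, SKM1 and MOLM13 (log2 -0.75, -0.80 and -0.67, SE 0.08, adjusted p = 2.53e-07, 1.04e-07 and 1.14e-06). A dimmer probe of XPO4 gave -0.50, -0.46 and -0.49 on the log2 scale, and its dimmest probe, at the level of the probe median, gave -0.20, -0.03 and 0.06. With the mean of all XPO4 probes the differences were smaller, -0.48, -0.43 and -0.37, and still called.

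IPO5 read 692, 639.9 and 626 in the shNT arrays of HL-60 and 496, 413 and 449 in its shBCAT1 arrays. It read 389.6, 383 and 413 in the shNT arrays of SKM1 and 252, 254 and 245 in its shBCAT1 arrays. It read 291, 314 and 293 in the shNT arrays of MOLM13 and 199, 232 and 215 in its shBCAT1 arrays. Its control level differed between lines, but within each the shBCAT1 arrays lay below the shNT arrays. IPO5 fell 1.44-fold, 1.58-fold and 1.39-fold (log2 -0.53, -0.66 and -0.48, SE 0.08, adjusted p = 3.25e-05, 2.89e-06 and 0.000112). For these 3 genes the F test for a difference between lines was not passed.

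**Figure D2:**
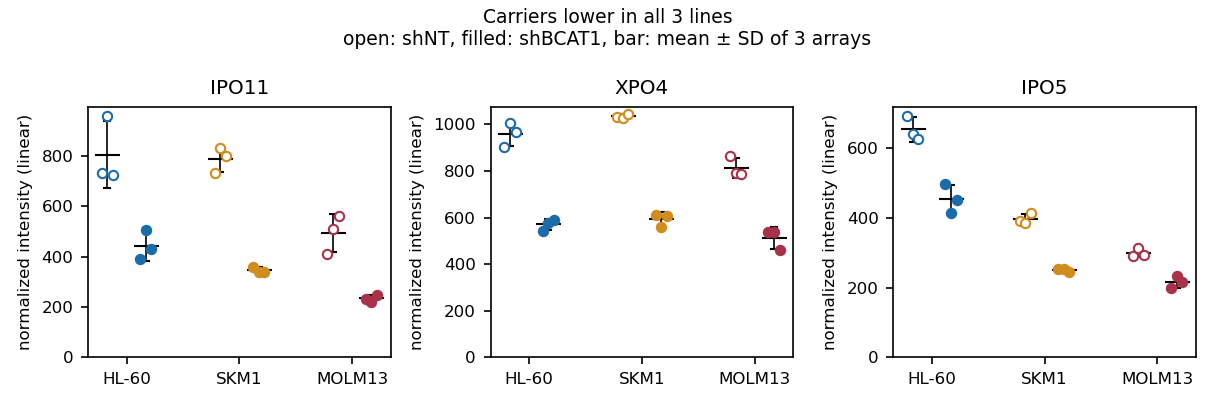
Normalized intensity (y axis, linear) of IPO11, XPO4 and IPO5 in each array, by line (x axis), with open points for shNT, filled points for shBCAT1 and bars for the mean and SD of 3 arrays. For each gene the filled points lie below the open points in each line.

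XPO6, the export receptor of actin bound to profilin, was called lower in SKM1 and MOLM13. It read 938, 1040.5 and 1012 in the shNT arrays of HL-60 and 899, 882 and 893 in its shBCAT1 arrays. It read 1004, 966 and 981 in the shNT arrays of SKM1 and 719, 799 and 855 in its shBCAT1 arrays. It read 602, 724 and 733 in the shNT arrays of MOLM13 and 484, 474 and 431 in its shBCAT1 arrays. In all 3 lines its shBCAT1 arrays lay below its shNT arrays. It fell 1.25-fold in SKM1 (log2 -0.32, adjusted p = 0.0151) and 1.48-fold in MOLM13 (log2 -0.56, SE 0.09, adjusted p = 2.69e-05). The SKM1 call was lost without shBCAT1 replicate 1 (adjusted p = 0.120) or shNT replicate 1 (0.0615).

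In MOLM13, genes of the pore scaffold fell as well. Of the 5 inner ring genes among the members 3 fell (median log2 -0.74), and of the 6 outer ring genes among them 4 fell (median -0.41). That is 60% and 66.7%, where 10.7% of all genes fell. The 3 inner ring falls stayed called with any 1 array left out, but of the outer ring falls only that of NUP85 did. Pore proteins outside the naming rule, such as SEC13, are not in these counts and are given further below. In HL-60, 1 of these 5 inner ring genes fell (20%, against 8.87% of all genes). None of these 6 outer ring genes was called there (also 0 at an unadjusted p under 0.05 by limma). In SKM1 NUP35, of the inner ring, rose and was the scaffold's only call. An unadjusted p under 0.05 by limma was reached by 4 of the 5 inner ring genes: NUP35 and, with negative differences, NUP155, NUP188 and NUP93. NUP205 was also negative (log2 -0.11), and the median of the 5 was -0.20. With array weights NUP155, NUP188 and NUP93 were also called lower in SKM1 (adjusted p = 0.0121, 0.0464 and 0.0345), and NUP155 and NUP93 with SKM1 arrays alone in the fit (0.00634 and 0.0395). NUP188 and NUP205 are the large inner ring proteins that bind the linker protein NUP93, and their promoter bases are printed here for that line's result: NUP188 at chr9:128947604-128947698 (+), only the 95 bases that lie outside a neighbouring gene, and NUP205 at chr7:135557667-135557916 (+), both from RefSeq in GRCh38.p14. Capitals mark CACGTG (E-box) and GGGCGG on either strand in NUP188 and CCAAT on either strand in NUP205.
NUP188: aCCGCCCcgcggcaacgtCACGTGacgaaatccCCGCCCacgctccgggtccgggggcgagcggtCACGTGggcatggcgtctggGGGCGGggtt
NUP205: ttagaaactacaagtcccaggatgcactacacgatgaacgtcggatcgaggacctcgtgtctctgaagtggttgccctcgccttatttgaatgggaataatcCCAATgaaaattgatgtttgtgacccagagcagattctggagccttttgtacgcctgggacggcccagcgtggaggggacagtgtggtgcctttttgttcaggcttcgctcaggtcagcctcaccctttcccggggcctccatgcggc
These runs share none of the searched motifs.

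NUP188 read 390.0, 476 and 499 in the shNT arrays of MOLM13 and 238, 245 and 217 in its shBCAT1 arrays. The groups lay apart, with a 1.94-fold fall (log2 -0.96, SE 0.10, adjusted p = 2.48e-07). It read 579, 661 and 662 in the shNT arrays of HL-60 and 583, 547 and 526 in its shBCAT1 arrays and 357, 413 and 428 in the shNT arrays of SKM1 and 308, 335 and 385 in its shBCAT1 arrays, where the groups overlapped (log2 -0.20 and -0.22, not called).

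NUP205 read 1009, 1343 and 1417 in the shNT arrays of MOLM13 and 667, 713 and 736 in its shBCAT1 arrays. The array of shNT replicate 1 was the lowest control but still above every shBCAT1 array, and the fall was 1.76-fold (log2 -0.82, SE 0.10, adjusted p = 2.79e-06). It read 1848, 2018 and 1584 in the shNT arrays of HL-60 and 1753, 1715 and 1693 in its shBCAT1 arrays and 1568, 1597 and 1627 in the shNT arrays of SKM1 and 1446, 1416 and 1597 in its shBCAT1 arrays, with overlapping groups (log2 -0.07 and -0.11, not called).

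NUP155, the inner ring protein that contacts the pore membrane, read 346, 396 and 460.5 in the shNT arrays of MOLM13 and 223, 229.6 and 266 in its shBCAT1 arrays, a 1.67-fold fall without overlap (log2 -0.74, SE 0.11, adjusted p = 2.28e-05). It read 644, 778 and 574 in the shNT arrays of HL-60 and 582, 657 and 540.5 in its shBCAT1 arrays, where groups overlapped, and 657, 693 and 697 in the shNT arrays of SKM1 and 542, 549.6 and 599 in its shBCAT1 arrays, where they did not (log2 -0.16 and -0.28, not called). Its other probe, at 88.0 on average and so below the probe median, gave 0.06 in MOLM13. With the mean of both probes the MOLM13 difference was -0.34 (adjusted p = 0.00350).

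NUP85, an outer ring protein, read 1023, 1113 and 1219 in the shNT arrays of MOLM13 and 682, 739 and 794 in its shBCAT1 arrays, a 1.51-fold fall (log2 -0.60, SE 0.08, adjusted p = 5.87e-06). In HL-60 the order was the opposite: NUP85 read 1286, 1313 and 1222 in the shNT arrays of HL-60 and 1360.3, 1438 and 1476 in its shBCAT1 arrays, with every shBCAT1 array above every shNT array, but this was not called. It read 970.2, 921 and 896 in the shNT arrays of SKM1 and 882, 933 and 858 in its shBCAT1 arrays, with overlap. The other outer ring genes called in MOLM13 were NUP107 at -0.43, NUP160 at -0.43 and NUP43 at -0.40 on the log2 scale (adjusted p = 0.0103, 0.0105 and 0.0258). NUP43 was dim, at 137 ± 10.7 in shNT and 104 ± 12.3 in shBCAT1 arrays of MOLM13 (SD, n = 3), beside the probe median of 92.1. NUP133 at -0.15 and NUP37 at 0.02 were not called.

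**Figure D3:**
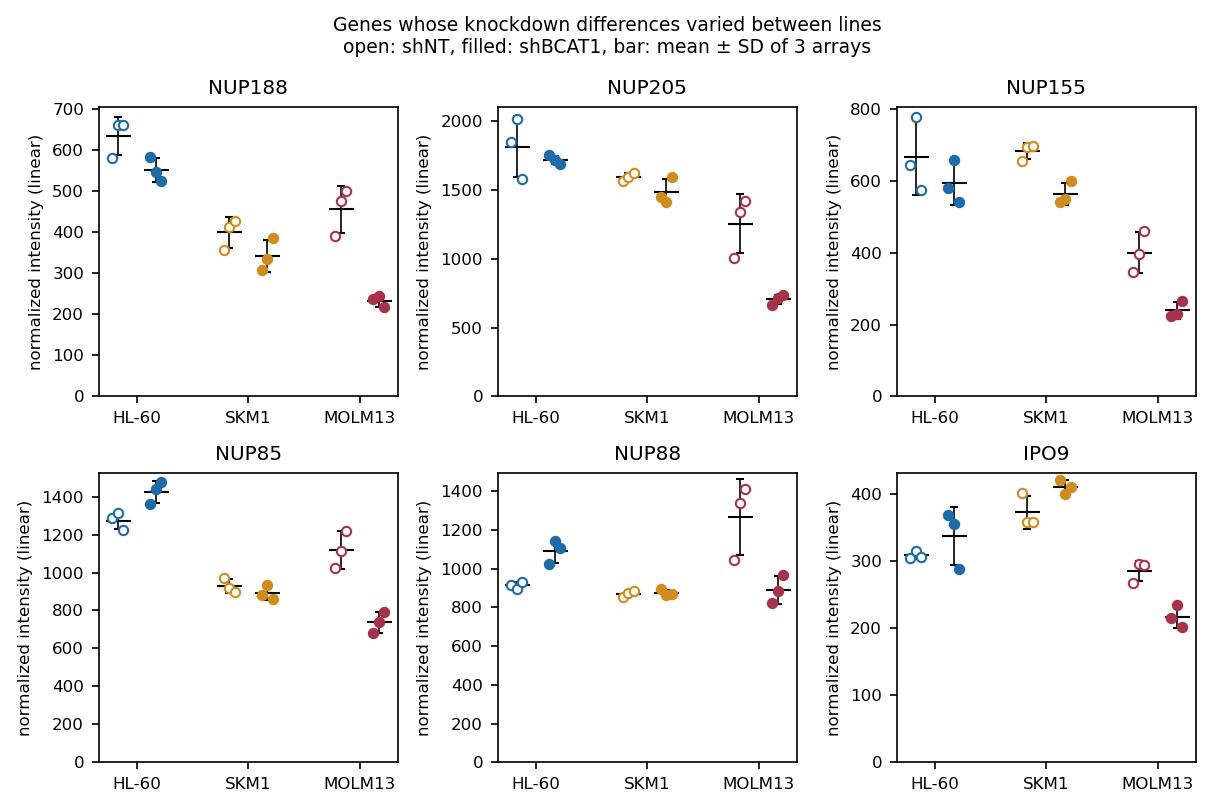
Normalized intensity (y axis, linear) of NUP188, NUP205, NUP155, NUP85, NUP88 and IPO9 in each array by line (x axis), with open points for shNT, filled points for shBCAT1 and bars for the mean and SD of 3 arrays. For NUP188, NUP205, NUP155 and NUP85 the MOLM13 groups lie apart, and in HL-60 the filled NUP85 and NUP88 points lie above the open ones.

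Outside the scaffold, MOLM13 showed a mixed picture. NUP88, a partner of NUP214 on the cytoplasmic face, fell from 1267 ± 195 to 891 ± 72.8 (SD, n = 3; log2 -0.50), while NUP42, on the same face, rose from 673 ± 152 to 852 ± 6.93 (log2 0.36) by limma (adjusted p = 0.000268 and 0.0148). NUP210, a pore membrane glycoprotein, fell by 0.38 and the basket protein NUP153 fell by 0.41 on the log2 scale (adjusted p = 0.00857 and 0.0102). NUP62CL, a relative of NUP62, read 107 ± 4.97 in shNT and 87.4 ± 3.11 in shBCAT1 arrays, the second below the probe median (SD, n = 3). The channel proteins NUP54, NUP58 and NUP62 had differences of -0.12, -0.01 and -0.16 and were not called. A dimmer NUP62 probe gave -0.39. With the mean of its probes NUP62 was called lower (-0.28, limma adjusted p = 0.0118), and so it was with array weights (-0.21, 0.0378).

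Among the MOLM13 carriers, 4 of 11 import receptors and 3 of 5 export receptors were called lower (36.4% and 60%, against 10.7% of all genes). Besides IPO11, XPO4, IPO5 and XPO6 these were IPO9, an importer of histones (log2 -0.40, adjusted p = 0.00182), KPNB1, importin beta 1 itself (-0.30, 0.0281), and XPO1, the exporter of proteins with leucine-rich export signals (-0.34, 0.0400). All 6 importin alpha adaptors measured had positive differences, 0.02 to 0.18, and were not called (0 also at an unadjusted p under 0.05 by limma). Of the 17 falls in MOLM13 other than NUP62CL, 10 stayed called with any 1 array left out: IPO11, IPO5, IPO9, NUP155, NUP188, NUP205, NUP85, NUP88, XPO4 and XPO6. Without shBCAT1 replicate 1 the adjusted p was 0.187 for KPNB1, 0.0971 for NUP153, 0.0559 for NUP210, 0.130 for NUP43 and 0.161 for XPO1, without shBCAT1 replicate 2 it was 0.0529 for NUP107, 0.0746 for NUP43 and 0.184 for XPO1. Without shNT replicate 2 it was 0.102 for KPNB1, 0.0747 for NUP107, 0.0626 for NUP210, 0.0938 for NUP42, 0.0814 for NUP43 and 0.0745 for XPO1, and without shNT replicate 3 it was 0.187, 0.0678, 0.0678, 0.128, 0.0993 and 0.234 for these genes and 0.0519 for NUP160.

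In HL-60 the calls beyond the shared carriers were few and small. IPO4, an importer of histones H3 and H4 among other cargo, fell from 653 ± 43.4 to 493 ± 94.6 (SD, n = 3; log2 -0.42, limma adjusted p = 0.00729). NUP93, the inner ring linker, fell from 2057 ± 177 to 1590 ± 95.2 (log2 -0.37, limma adjusted p = 0.00212). The adaptor KPNA1 and XPO5, the exporter of precursor microRNAs, each fell by 0.26 on the log2 scale (adjusted p = 0.0252 and 0.0289). IPO13 and KPNA5 rose. IPO13 is a receptor that can both import and export, and it went from 453 ± 22.1 to 592 ± 57.7 (log2 0.38, limma adjusted p = 0.00469). KPNA5 went from 90.0 ± 8.03 to 114 ± 5.15, close to the probe median of 92.1 (log2 0.34, limma adjusted p = 0.00354). Calls were lost for IPO4 without shBCAT1 replicate 3 (adjusted p = 0.0736), for KPNA1 without shBCAT1 replicate 1 or 3 or shNT replicate 1 or 2 (0.0580, 0.0697, 0.0691 and 0.0573), and for XPO5 without shBCAT1 replicate 2 or 3 or shNT replicate 2 (0.0914, 0.0784 and 0.121).

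In SKM1 the remaining call was NUP35, an inner ring protein with membrane-bending activity. It rose from 276 ± 11.2 to 376 ± 21.0 (SD, n = 3; log2 0.44, SE 0.09, limma adjusted p = 0.00202). The groups did not overlap. A dimmer NUP35 probe gave 0.16 on the log2 scale, and the mean of both gave 0.30 (adjusted p = 0.00448).

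Averaged over the lines, 15 members were lower and 3 higher (34.1% and 6.82%, against 14.1% and 13.9% of all genes). Of these, IPO7 (0.20, adjusted p = 0.0201) and TNPO1 (-0.22, adjusted p = 0.0280) had been called in no line. IPO7 imports ribosomal proteins, and TNPO1 imports RNA-binding proteins such as hnRNP A1. The IPO7 call was lost without HL-60 shNT replicate 3 (0.0513), and that of TNPO1 with the mean of its probes (0.507), since a second TNPO1 probe gave 0.27 in SKM1 and 0.14 in MOLM13 where the brightest gave -0.11 and -0.36. TNPO1 was also lost without HL-60 shBCAT1 replicate 2 (0.0683), SKM1 shBCAT1 replicate 2 (0.0670), SKM1 shNT replicate 2 (0.0549), MOLM13 shBCAT1 replicate 3 (0.0649) or MOLM13 shNT replicate 2 (0.0750). The other members called on average were IPO11 at -1.04, XPO4 at -0.74, IPO5 at -0.56, NUP188 at -0.46, NUP155 at -0.39, XPO6 at -0.35, NUP205 at -0.33, NUP210 at -0.26, NUP160 at -0.25, NUP93 at -0.25, IPO4 at -0.24, XPO5 at -0.23, NUP153 at -0.21, NUP85 at -0.17, NUP35 at 0.20 and IPO13 at 0.18. The lines differed in sign for NUP85 (0.16, -0.06 and -0.60 in HL-60, SKM1 and MOLM13) and NUP153 (-0.25, 0.01 and -0.41). They also did for NUP35 (0.18, 0.44 and -0.03) and IPO13 (0.38, -0.07 and 0.22), in the same order.

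The lines were then compared directly. The fall of BCAT1 itself differed between the lines (limma F test, adjusted p = 0.00222) and was smallest in MOLM13. The part of this in the differences of the members was not tested. A limma F test for any difference in the shBCAT1 effect between lines was passed by 10 of the 44 members. That share was near the 18% of all genes (2747 of 15291). In the pairwise tests, 8 members had a lower effect in MOLM13 than in HL-60 and 8 a lower effect than in SKM1 (18.2% each, against 8.02% and 4.75% of all genes). NUP85 (log2 -0.76 and -0.54), NUP188 (-0.76 and -0.74), NUP205 (-0.75 and -0.71), NUP88 (-0.75 and -0.51) and IPO9 (-0.52 and -0.54) were lower in MOLM13 than in HL-60 and in SKM1. For IPO9, the difference in effect rested on the MOLM13 fall from 285 ± 15.3 to 217 ± 16.3 beside levels of 308 ± 5.58 and 337 ± 42.8 in HL-60 and 372 ± 24.4 and 410.0 ± 9.81 in SKM1 (shNT and shBCAT1, SD, n = 3). With background correction by normexp, the NUP88 difference between MOLM13 and SKM1 missed the threshold (adjusted p = 0.0572).

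The other pairwise differences were each called against 1 line. NUP155 (-0.58), XPO6 (-0.41) and TNPO3 (-0.61), the import receptor of serine/arginine-rich splicing factors, were lower in MOLM13 than in HL-60, and NUP107 (-0.56), NUP35 (-0.48) and NUP62 (-0.35) lower in MOLM13 than in SKM1. IPO13 (-0.45) and KPNA5 (-0.40) were lower in SKM1 than in HL-60, 4.55% of members against 4.34% of all genes. Apart from NUP155, which missed the threshold only with the mean of its probes (adjusted p = 0.255), each of these 7 calls was lost on leaving out some array. The adjusted p then reached 0.0614 for TNPO3 and 0.117 for NUP107 (both without MOLM13 shNT replicate 2), 0.0754 for XPO6 (without MOLM13 shNT replicate 3), 0.0626 for NUP35 (without SKM1 shBCAT1 replicate 1), 0.127 for NUP62 (without SKM1 shBCAT1 replicate 2), 0.108 for IPO13 (without HL-60 shBCAT1 replicate 3) and 0.123 for KPNA5 (without SKM1 shBCAT1 replicate 3).

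Across the 44 members, as a description over genes and not over replicates, the log2 differences of HL-60 and SKM1 had a Pearson correlation of 0.778, those of SKM1 and MOLM13 0.580 and those of HL-60 and MOLM13 0.455. Without IPO11, XPO4 and IPO5 these were 0.523, 0.399 and 0.223 over 41 genes, and over all 15291 genes 0.484, 0.370 and 0.317. The lines share no arrays, but they share the hairpin and the platform. Of the members, 15 had a negative difference in all 3 lines (34.1%, against 18.6% of all genes).

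**Figure D4:**
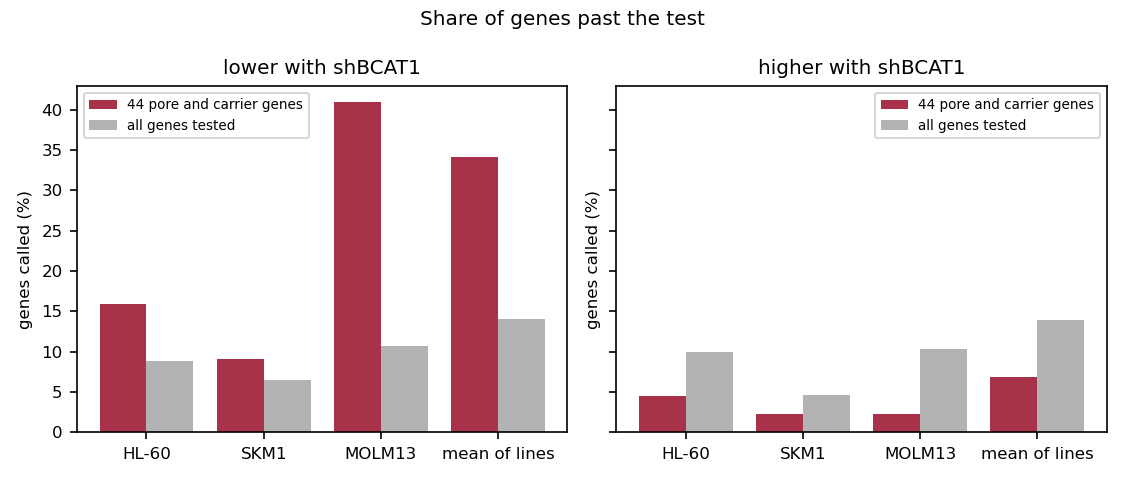
Percentage of genes called (y axis) lower (left panel) and higher (right panel) with shBCAT1 in each line and on the mean of the lines (x axis), for the 44 members (dark bars) and all genes tested (grey bars). The members' share called lower in MOLM13 is 40.9% (39.5% without NUP62CL) beside 10.7% of all genes. In HL-60 and SKM1 it is 15.9% and 9.09%, beside 8.87% and 6.49% of all genes.

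Pore and transport genes outside the naming rule were read from 3 lists, also chosen with earlier results of these data known. Of 11 other pore proteins, 4 fell in MOLM13 (36.4%, against 10.7% of all genes; median log2 -0.19), namely the basket protein TPR (-0.44), POM121C (-0.43), AHCTF1, which seeds pore assembly on chromatin (-0.28), and the membrane protein NDC1 (-0.27). In HL-60, NDC1 fell (-0.31) and SEC13 rose (0.44), 9.09% each, near the 8.87% and 10% of all genes. In SKM1 none of the 11 was called by limma, with 3 at an unadjusted p under 0.05. Of 13 Ran cycle genes and other carriers, 4 fell in HL-60 (30.8%, against 8.87% of all genes), 1 fell in SKM1 (7.69%, near the 6.49% of all genes) and 5 fell in MOLM13 (38.5%, against 10.7%). RCC1, the chromatin-bound exchange factor that loads Ran with GTP, fell in all 3 lines (-0.58, -0.32 and -0.49 in the order HL-60, SKM1, MOLM13, adjusted p = 7.17e-05, 0.0290 and 0.000508). CSE1L, which returns importin alpha to the cytoplasm, fell in MOLM13 (-0.56) beside RANBP1 (-0.55) and NXT1 (-0.43).

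Of 18 genes of mRNA export by the TREX complex, 7 fell in MOLM13 (38.9%, against 10.7% of all genes), and 6 fell and 1 rose in HL-60 (33.3% and 5.56%, against 8.87% and 10%). In SKM1, 2 fell and 1 rose (11.1% and 5.56%, against 6.49% and 4.67%). THOC7, a subunit of the THO core, fell in all 3 lines (-0.51, -0.67 and -0.35 in HL-60, SKM1 and MOLM13, adjusted p = 3.01e-05, 1.28e-06 and 0.00157). THOC3 (-0.64), the helicase DDX39A (-0.54) and THOC1 (-0.49) fell in MOLM13, and POLDIP3 fell in HL-60 (-0.55) and SKM1 (-0.28).

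The control arrays of the lines also differed in their transport genes. Between shNT groups, 10 members were higher and 17 lower in SKM1 than in HL-60 (22.7% and 38.6%, against 24.6% and 24.1% of all genes). In MOLM13, 7 were higher and 24 lower than in HL-60 (15.9% and 54.5%, against 19.5% and 24.7%), and 9 were higher and 22 lower than in SKM1 (20.5% and 50%, against 21.9% and 25.8%). NUP62CL was among the higher genes of MOLM13, which without it numbered 6 and 8. Of the 11 import receptors, 9 were lower in MOLM13 than in HL-60 (81.8%, against 24.7% of all genes). In SKM1 8 were lower and 1 higher than in HL-60 (72.7% and 9.09%, against 24.1% and 24.6%).

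NUP214, a cytoplasmic filament protein, read 709, 795 and 817 in the HL-60 controls, 515, 445 and 561 in those of SKM1 and 1172, 1164 and 1111 in those of MOLM13. The lines did not overlap, in the order SKM1, HL-60, MOLM13 from low to high. NUP62, of the central channel, read 3152, 3352 and 3250.4 in the HL-60 controls, 2189, 1963 and 2007 in those of SKM1 and 3614, 3922 and 3837 in those of MOLM13. SKM1 was again the lowest. The MOLM13 excess over HL-60 (log2 0.22, adjusted p = 0.0233) lost its call without HL-60 shNT replicate 1 at 0.0737, MOLM13 shNT replicate 2 at 0.0843 or MOLM13 shNT replicate 3 at 0.0627. NUP50, a mobile basket protein, was highest in SKM1, at 1124, 1227 and 1162, beside 471, 448 and 440.4 in HL-60 and 534, 591 and 576 in MOLM13.

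NUP93 ran lowest in MOLM13, at 1178, 1124 and 1205, beside 1878, 2062 and 2232 in HL-60 and 2563, 2495 and 2482 in SKM1. IPO8, a carrier whose known cargo includes SMAD proteins, read 502, 448 and 411 in the HL-60 controls, 163, 142 and 166 in those of SKM1 and 325, 284 and 303 in those of MOLM13. All 3 lines lay apart. XPO7, a broad-specificity carrier induced in late erythroid cells, read 278, 256 and 273 in the HL-60 controls, 451, 468 and 457 in those of SKM1 and 481, 526 and 494 in those of MOLM13, so that HL-60 was low and the other lines were not called different.

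**Figure D5:**
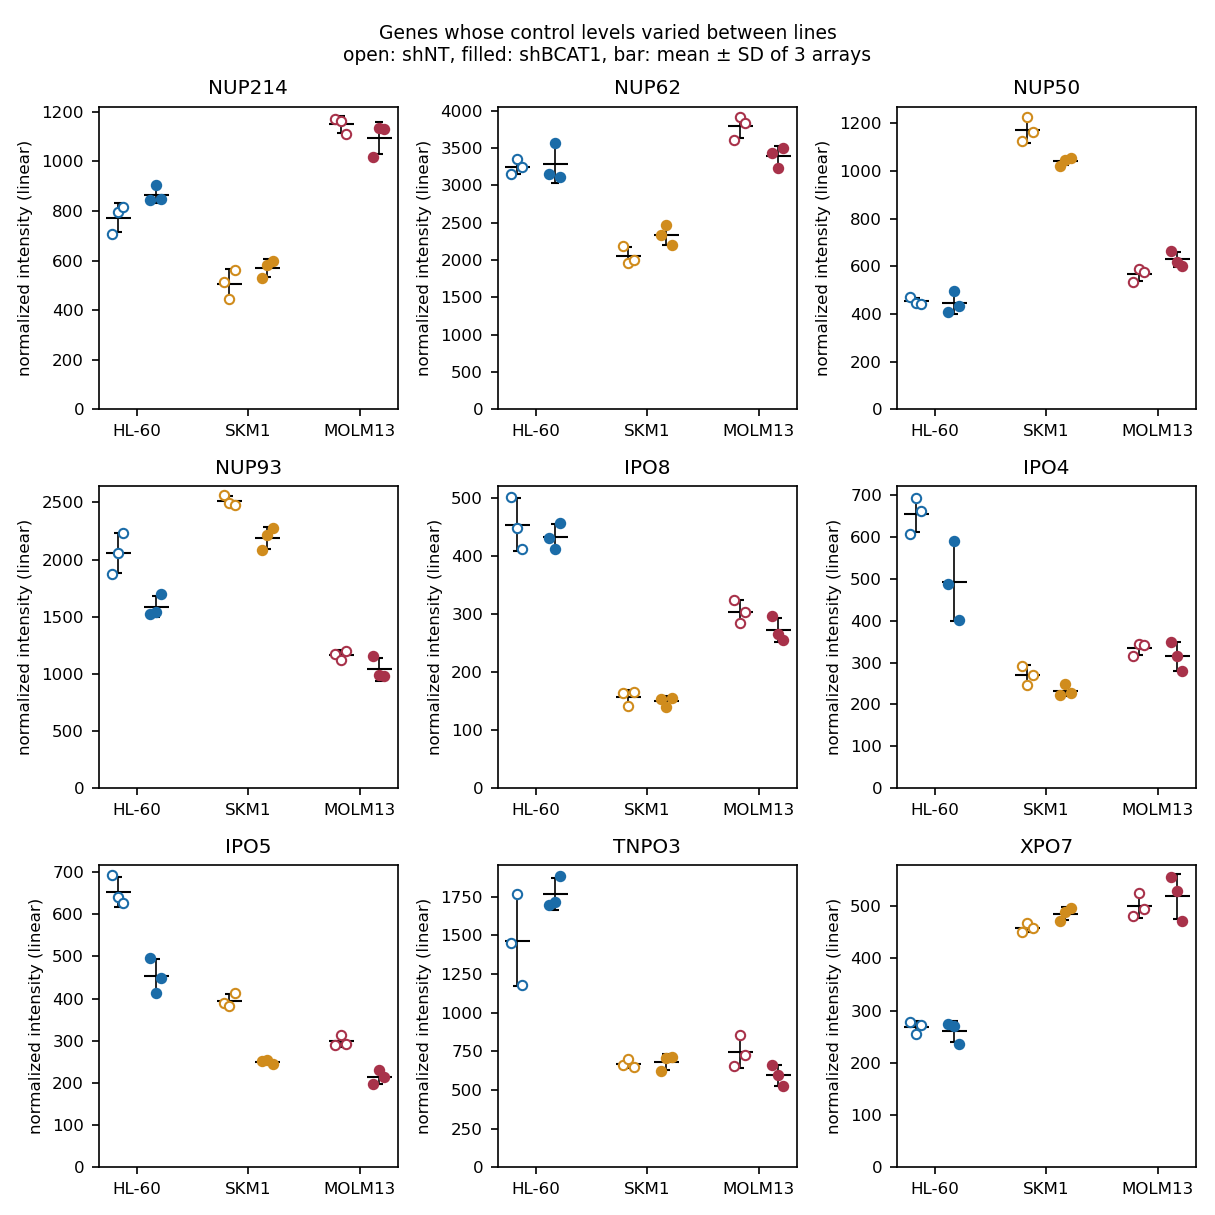
Normalized intensity (y axis, linear) of NUP214, NUP62, NUP50, NUP93, IPO8, IPO4, IPO5, TNPO3 and XPO7 in each array by line (x axis), with open points for shNT, filled points for shBCAT1 and bars for the mean and SD of 3 arrays. NUP50 is highest in SKM1, NUP214 is highest in MOLM13, and IPO4, IPO5 and TNPO3 are highest in HL-60.

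The members called in SKM1 relative to HL-60, as log2 differences of the controls, were the import receptors IPO8 at -1.53, IPO4 at -1.28, TNPO3 at -1.11, TNPO2 at -0.77, IPO13 at -0.73, KPNB1 at -0.73, IPO5 at -0.72, TNPO1 at -0.68 and IPO9 at 0.27. The adaptors were KPNA2 at 0.94, KPNA1 at 0.26, KPNA3 at 0.25 and KPNA6 at -0.48, and the exporters XPO7 at 0.77, XPO1 at 0.35 and XPO5 at -0.51. The pore proteins were NUP50 at 1.37, NUP35 at 0.66, NUP58 at 0.32, NUP93 at 0.29, NUP43 at -0.53, NUP107 at -0.45, NUP85 at -0.46, NUP214 at -0.61, NUP62 at -0.66, NUP188 at -0.67 and NUP210 at -0.70. KPNA2, the adaptor of many classical import signals, thus went opposite to most import receptors. The TNPO1 call was lost with the mean of its probes (adjusted p = 0.132), and 4 others without 1 array: IPO9 without SKM1 shNT replicate 1 (0.0801), KPNA1 without SKM1 shNT replicate 3 (0.0534), XPO1 without HL-60 shNT replicate 1 (0.0557) and KPNA3 without HL-60 shNT replicate 1 or 3 (0.0764 and 0.153) or SKM1 shNT replicate 2 or 3 (0.129 and 0.0636).

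Relative to HL-60, MOLM13 was lower in the import receptors IPO5 at -1.12, TNPO1 at -1.11, IPO4 at -0.97, TNPO3 at -0.97, IPO13 at -0.81, IPO11 at -0.71, TNPO2 at -0.59, IPO8 at -0.58 and IPO7 at -0.43. Adaptors and exporters were KPNA4 at -0.81, KPNA6 at -0.57, KPNA3 at -0.36, KPNA5 at 0.36, XPO6 at -0.54, XPO5 at -0.37, XPO4 at -0.24 and XPO7 at 0.89. Of the pore proteins, NUP210 at -1.07, NUP93 at -0.81, NUP155 at -0.73, NUP42 at -0.65, NUP205 at -0.54, NUP133 at -0.51, NUP188 at -0.48, NUP43 at -0.43 and NUP107 at -0.38 were lower and NUP214 at 0.57, NUP88 at 0.46, NUP50 at 0.32 and NUP62 at 0.22 higher. The inner ring genes that fell with shBCAT1 in MOLM13, NUP155, NUP188 and NUP205, were lower in its controls than in those of HL-60. NUP188 was also lower in the SKM1 controls than in HL-60 (-0.67), and its fall was not called in SKM1. NUP88, which fell in MOLM13 too, was higher in its controls. A relation of control level to the fall was not tested. With the mean of its probes NUP50 was not called (adjusted p = 0.401), and calls were lost for NUP107 without HL-60 shNT replicate 2 or MOLM13 shNT replicate 1 (0.136 and 0.131), for NUP43 without HL-60 shNT replicate 1 or 2 (0.0563 and 0.0601) and for XPO4 without HL-60 shNT replicate 2 or MOLM13 shNT replicate 2 or 3 (0.0776, 0.0629 and 0.0657).

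Relative to SKM1, MOLM13 was lower in NUP93 at -1.10, KPNA2 at -1.09, NUP50 at -1.05, NUP35 at -0.79, NUP155 at -0.78, IPO11 at -0.68, KPNA3 at -0.61, KPNA4 at -0.57, NUP133 at -0.56, XPO6 at -0.52, IPO7 at -0.49, NUP42 at -0.45, TNPO1 at -0.43, KPNA1 at -0.41, IPO5 at -0.40, IPO9 at -0.38, NUP210 at -0.37, NUP205 at -0.36, XPO4 at -0.35, NUP160 at -0.35, XPO1 at -0.29 and NUP58 at -0.26. It was higher in NUP214 at 1.19, IPO8 at 0.95, NUP62 at 0.89, KPNB1 at 0.54, NUP88 at 0.53, IPO4 at 0.31, KPNA5 at 0.29 and NUP85 at 0.26. NUP214 and its partner NUP88 were therefore both higher in MOLM13 controls than in either other line. With the mean of its probes XPO4 was not called (0.0793). Calls were lost for NUP205 without MOLM13 shNT replicate 1 (0.0704), for NUP85 and TNPO1 without MOLM13 shNT replicate 3 (0.0662 and 0.0716), for IPO4 without SKM1 shNT replicate 2 (0.117) or MOLM13 shNT replicate 2 or 3 (0.0697 and 0.0584), for NUP160 without SKM1 shNT replicate 2 or 3 (0.0714 and 0.111) or MOLM13 shNT replicate 2 (0.0729), and for XPO1 without any SKM1 shNT array (0.0717, 0.0846 and 0.0943) or MOLM13 shNT replicate 1 or 2 (0.196 and 0.105).

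As sequence, the promoters of the genes were set beside those of all genes tested. For 39 of the 44 members and 11900 genes tested the 250 bases before the RefSeq start were searched for 6 motifs on both strands, for NUP188 too, of which fewer bases are printed. The ETS letters CCGGAAG were in 11 members (28.2%, against 13.8% of all tested), CCAAT in 19 (48.7%, 34.9%), the NRF1 motif, GCGCA, any base and GCGC, in 7 (17.9%, 9.1%), the E-box CACGTG in 6 (15.4%, 8.41%), the GC box GGGCGG in 20 (51.3%, 61.1%) and the E2F letters TTTGGCGC or TTTCCCGC in 0 (2.8% of all tested). Of the 3 carriers that fell in every line, IPO11 was among the 7 with the NRF1 letters, beside NUP62, NUP107, NUP214, NUP50, IPO9 and XPO5. The median GC content was 62.4% in the members and 63.6% in all tested.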

How the data were processed

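Total RNA from the 18 samples was hybridised to Illumina expression arrays, and the deposited values are normalized linear intensities per probe. Per the labels' protocols the RNA was amplified and biotin-labelled and stained with streptavidin-Cy3. The normalization method used by the authors is not given in the sources used here, and detection calls were not used here, so signal over background is judged only against the median of all probe values. The values ran from 60.4 to 22918, with 15 missing.

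From these, log2 values were taken with no further normalization. Each of 30113 probes with 1 gene symbol in the platform annotation was assigned to its gene, the brightest probe stood for the gene, and 15291 of 20046 genes passed the filter on dim genes (highest group mean above the median of all probe values). One limma model with 6 group means (limma 3.58.1 in R 4.3.3, lmFit and eBayes, 12 residual degrees of freedom) gave all contrasts and the F test, with Benjamini-Hochberg adjustment over all genes and a threshold of 0.05. The number of arrays limits the precision.

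Every member called in a contrast is named, and the 8 members with the smallest adjusted p over the knockdown contrasts are given array by array. Of 8 gene lists, those outside the members give at most 4 genes a contrast. The members and lists were chosen with earlier results of these data known. Groups came from the sample titles. Within MOLM13, arrays of the same replicate number deviated together (r = 0.277, 0.131 and 0.382), which was not so throughout HL-60 (0.161, 0.0151 and 0.0958) or SKM1 (-0.0974, -0.141 and 0.0404). The pairing thus comes from the data and not from the labels. Alternatives were the replicate block, quantile normalization, normexp (offset 16), no or a stricter filter on dim genes (1.5 times the median), the mean of a gene's probes, array weights, a trended robust prior, a fit of the compared arrays alone and each array left out. Promoter sequences are RefSeq's (GRCh38.p14), with all 46 symbols matched, and figures used matplotlib 3.10.9 with Python 3.11.15.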

Additional observations from a re-analysis of the deposited data

Results flagged for a closer look

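The effect of shBCAT1 differed between the 3 lines for 10 of the 44 pore and transport genes, by the limma F test adjusted over all genes. That share was near the 18% of all genes tested (2747 of 15291), so the count does not set the members apart. For NUP85 (adjusted p = 0.000104), NUP188 (0.000468), NUP88 (0.000569), NUP205 (0.000753) and IPO9 (0.00375) the effect was lowest in MOLM13, and the test was passed under each of 26 alternatives. For NUP155 (0.0212) it was also lowest in MOLM13, and the test was missed under 4 of 26 alternatives. For TNPO3 (0.0358), NUP35 (0.0374), KPNA5 (0.0408) and IPO13 (0.0481) it was missed under 8 of 26, 10 of 26, 13 of 25 and 16 of 26 alternatives. The adjusted p of these genes over the alternatives reached 0.305 for NUP155, 0.120 for TNPO3, 0.143 for NUP35, 0.129 for KPNA5 and 0.132 for IPO13.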

How the results depend on the processing

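Of 51 calls of members in the 3 lines and on their mean, 37 were kept under every alternative, none reversed direction, and 14 were lost on leaving out at least 1 array. The fall of NUP62CL in MOLM13 is among the 51 and the 37, and in each knockdown count for MOLM13 below. The number of members called in SKM1 was 5 and became 11 with array weights and 9 with SKM1 arrays alone in the fit. With 1 array left out, the number called was 7 to 11 in HL-60, 4 to 5 in SKM1, 13 to 21 in MOLM13 (13 without shNT replicate 2, 21 without shNT replicate 1) and 17 to 25 on the mean. The F test count of 10 ranged from 6 (without MOLM13 shBCAT1 replicate 2 or shNT replicate 2) to 14 (without MOLM13 shNT replicate 1), and the counts between controls from 25 to 29 in SKM1 over HL-60, 28 to 32 in MOLM13 over HL-60 and 28 to 31 in MOLM13 over SKM1. With the replicate block the counts were 12 in HL-60, 6 in SKM1, 20 in MOLM13, 21 on the mean, 12 in the F test and 27, 32 and 32 between controls, and in MOLM13 the block added TNPO1 (adjusted p = 0.00802). In HL-60 and SKM1 the correlations of same-numbered arrays were weak, and the labels do not say whether the numbers pair the arrays. The block ended the calls of NUP62 between MOLM13 and SKM1 (0.0522) and of KPNA3 between the SKM1 and HL-60 controls (0.0644). KPNA5 and NUP62CL lie near the probe median, and levels of different genes cannot be ranked.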

Other observations

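The nuclear lamina and envelope hold the pores. Of 14 of their genes measured, 5 rose in HL-60 (35.7%, against 10% of all genes) and 2 rose in SKM1 (14.3%, against 4.67%). In MOLM13, 3 fell and 1 rose (21.4% and 7.14%, against 10.7% and 10.3%). Whether these genes differ from the pore genes was not tested. LMNB1, which encodes lamin B1, rose in HL-60 (log2 0.33, limma adjusted p = 0.0235) and fell in MOLM13 (-0.74, adjusted p = 8.62e-06), where LMNB2, which encodes lamin B2, fell as well (-0.53, adjusted p = 4.52e-05). LBR, the lamin B receptor of the inner nuclear membrane, rose in HL-60 (0.61, adjusted p = 0.00199) and SKM1 (0.46, adjusted p = 0.0285) and was at -0.04 in MOLM13, where it was not called.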
